A study of Mus musculus with 6 samples.

Results

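The tubulin genes of D10 T cells were followed through cold acclimation. Members were the rows of the deposited expression table whose gene symbol equals one of 10 names: the alpha-tubulin genes Tuba1a, Tuba1b, Tuba1c and Tuba4a, the beta-tubulin genes Tubb2a, Tubb2b, Tubb4b, Tubb5 and Tubb6, and the gamma-tubulin gene Tubg1. All 10 were found among the 41079 genes listed, and all 10 were among the 12227 genes tested, those with a mean of at least 1 TPM over the 6 libraries. TPM (transcript abundance) is the number of reads on a gene divided by its length and scaled to the same total in every library. Tubb2b passed this filter through 1 library at 37°C. D10 is a cloned mouse helper T cell line, labelled CD4+, that recognizes a conalbumin peptide, and all libraries carry this 1 label. Cold-acclimated cells were kept for 24 h at 26°C and non-acclimated cells for 24 h at 37°C, with 3 libraries in each condition, prepared as separate replicates numbered 1 to 3. No other agent or genotype separated the groups, and serum and antibiotics were in the medium of both (the study's methods add IL-2). The study asked whether T cells reset their gene expression when held in the cold.

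Alpha- and beta-tubulin form the heterodimer that polymerizes head to tail into microtubules, and gamma-tubulin sits in the ring complex from which new microtubules grow. In T cells microtubules build the mitotic spindle, and they carry the centrosome and secretory vesicles towards the contact with an antigen-presenting cell. Microtubules of mammalian cells are known to depolymerize on cooling. Cells also adjust tubulin synthesis to the pool of free dimers: when free dimer is in excess, Ttc5 binds the first residues of a nascent tubulin chain and, with Scaper, brings a deadenylase to the mRNA being translated.

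The libraries held between 16899628 and 31290854 reads, recovered from the steps in the TPM values. T cell markers were present in all 6 libraries, with Cd3e between 484 and 874 TPM and Gata3 between 387 and 752 TPM. Cd4, which the label CD4+ names, went against it in 4 libraries. It stood at 1.09 TPM and 0.0350 TPM in non-acclimated replicates 1 and 2 and at 1.30 TPM and 0.352 TPM in their cold-acclimated partners, against 310 TPM and 328 TPM in replicate 3. Replicate 3 thus differed from the others in both conditions. Whether the replicates came from 1 subline was not tested, and the calls on the tubulin genes are also given without it. Of the 6 B cell markers, Ms4a1 was listed at 0 in every library and the summed level of the list lay between 0.948 TPM and 3.62 TPM. The summed level of 5 macrophage markers lay between 2.46 TPM and 15.9 TPM in non-acclimated and between 2.69 TPM and 21.2 TPM in cold-acclimated cells, highest in replicate 3 of each, while Adgre1, Csf1r and Itgam were at or near 0.

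The transcripts themselves show why some members can be told apart and others less well. The last 75 coding bases, stop codon included, encode the acidic tail in which isotypes differ most and on which tubulin is modified. Those of 4 beta genes are printed here in lower case from GRCm39, 5′ to 3′ on the gene's strand, with capitals at the bases that differ from Tubb5 in the alignment.
Tubb5 (chr17:36145874-36145948): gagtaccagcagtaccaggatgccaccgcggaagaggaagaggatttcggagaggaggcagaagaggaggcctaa
Tubb4b (chr2:25112320-25112394): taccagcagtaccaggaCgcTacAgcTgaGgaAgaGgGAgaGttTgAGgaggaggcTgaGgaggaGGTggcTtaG
Tubb2a (chr13:34258451-34258525): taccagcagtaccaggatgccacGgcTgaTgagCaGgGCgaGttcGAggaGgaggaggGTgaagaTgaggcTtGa
Tubb2b (chr13:34311454-34311528): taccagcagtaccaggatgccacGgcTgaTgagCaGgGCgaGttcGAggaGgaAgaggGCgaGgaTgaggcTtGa

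Each of these stretches lies in a single exon. Against Tubb5, Tubb2a differed at 16 bases, Tubb2b at 18 and Tubb4b at 20.

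Over the whole coding sequence, Tuba1a and Tuba1b were 98.3% identical, Tuba1b and Tuba1c 97.9%, and Tubb2a and Tubb2b 96.5%. Tuba4a was 84.7% to 85.3% identical to the other alpha genes, and every other pair of beta genes lay between 80.2% and 84.6%. Tubg1 was 52.2% to 54.2% identical to the other members. Reads of near-identical copies could be split or lost by the counting. Of all 150-base windows in its coding sequence, Tuba1b shared 76.5% with a transcript of another gene, Tuba1c 71.3%, Tuba1a 66.9%, Tubb2a and Tubb2b 34.3% each, Tubb4b 20.5% and Tubg1 1.2%. Tubb5, Tubb6 and Tuba4a shared no coding window, while the division among Tuba1a, Tuba1b and Tuba1c is uncertain. Untranslated sequence was not searched.

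The alpha genes Tuba1a (ENSMUSG00000072235, chr15:98847728-98851382), Tuba1b (ENSMUSG00000023004, chr15:98829310-98832271) and Tuba1c (ENSMUSG00000043091, chr15:98927772-98935986) lie side by side in GRCm39, and Tuba4a (ENSMUSG00000026202) at chr1:75190867-75197905. The antisense gene Gm41396 spans all of Tuba1b and held between 79.1 TPM and 442 TPM. Tuba4a overlaps Stk16 on the opposite strand by 1384 bases, a gene listed at 19.4 TPM to 94.2 TPM, and A630095N17Rik on its own strand by 1167 bases, listed at 0 in 5 libraries. In the GENCODE annotation every member other than Tuba1c, Tubb5 and Tubb6 included, overlaps another gene. The study's methods describe strand-specific libraries. The strand setting of the counting is not given in the sources used here, so reads of these genes may not have been told apart. In the GENCODE annotation the protein-coding gene Gm49450 overlaps Tuba1a and Tuba1b on their own strand, where a strand setting would not separate reads. The beta genes Tubb2a (ENSMUSG00000058672, chr13:34258261-34261991) and Tubb2b (ENSMUSG00000045136, chr13:34310991-34314337) are also neighbours. Tubb4b (ENSMUSG00000036752) lies at chr2:25112170-25114714 and Tubb5 (ENSMUSG00000001525) at chr17:36144812-36149193. Tubg1 (ENSMUSG00000035198) lies at chr11:101010725-101017249 and has 11 exons, and every alpha and beta gene has 4, in the canonical GENCODE transcript. Tubb6 (ENSMUSG00000001473) is on chromosome 18.

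In non-acclimated cells Tubb5 and Tuba1b led, with 1855 ± 224 TPM and 1508 ± 366 TPM (mean ± SD, n = 3). Tubb5 stood above Tuba1b in all 3 libraries, but the ranges of the pair overlapped. Tubb4b followed at 811 ± 52.7 TPM, Tuba1c at 485 ± 46.6 TPM and Tuba1a at 199 ± 29.0 TPM, each without overlap with the next. The neighbours Tubb6 (140 ± 30.8 TPM), Tuba4a (126 ± 88.2 TPM) and Tubg1 (117 ± 19.7 TPM) did not differ beyond their spread, and Tubb2a (49.7 ± 2.75 TPM) and Tubb2b (4.23 ± 5.11 TPM) were lowest.

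In cold-acclimated cells Tuba1b was first in each library, at 878 ± 573 TPM, and Tubb5 second, at 554 ± 341 TPM. Tuba1c (361 ± 191 TPM) and Tubb4b (352 ± 193 TPM) came next, and then Tuba4a (120 ± 105 TPM), Tuba1a (95.7 ± 56.5 TPM), Tubb6 (87.4 ± 45.3 TPM), Tubg1 (45.8 ± 33.3 TPM), Tubb2a (26.2 ± 12.4 TPM) and Tubb2b (0.724 ± 0.627 TPM). Every neighbouring pair down to Tubg1 and Tubb2a overlapped between libraries at 26°C. Replicate 3 was the highest cold-acclimated library for 8 of the 10 genes, the exceptions being Tubb2b and Tubb6, as the plot of TPM by library shows.

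**Figure D1:**
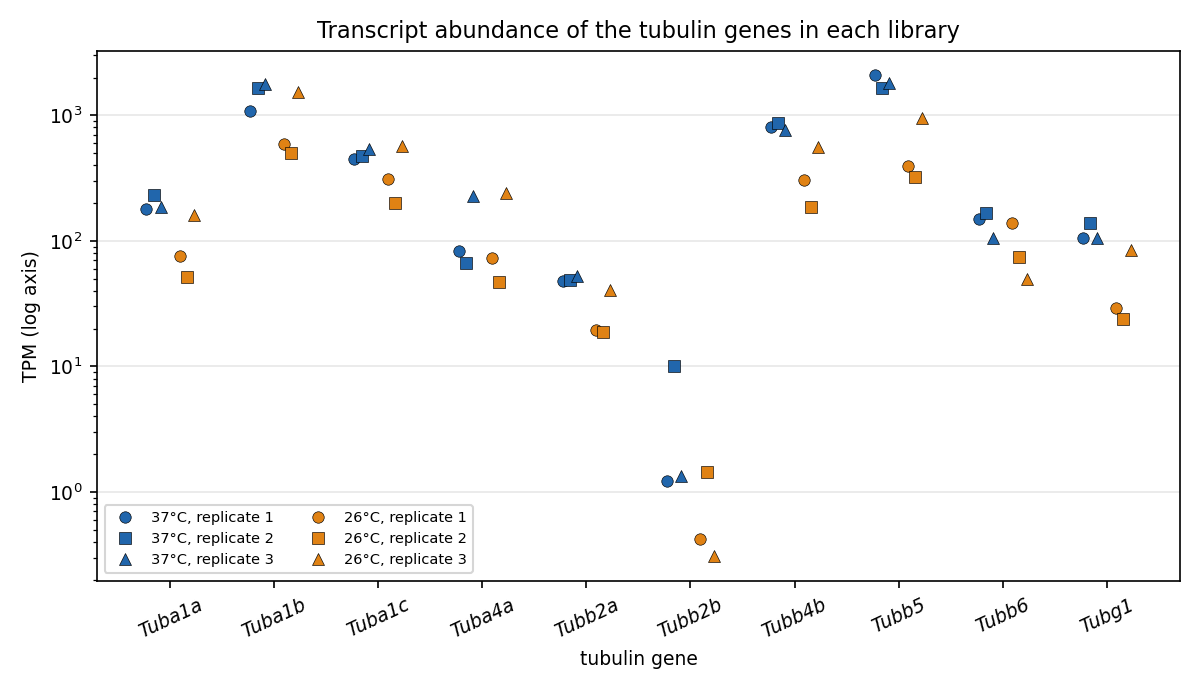
Transcript abundance of the 10 tubulin genes in TPM on a log axis, with 1 point per library, blue for 37°C and orange for 26°C, and a marker shape for each replicate number. For Tubb5, Tubb4b, Tubg1, Tuba1a and Tubb2a all orange points lie below all blue points, and for most genes the orange triangle (replicate 3) is the highest of the cold-acclimated libraries.

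As a whole, the 10 genes took 0.50%, 0.532% and 0.556% of all TPM in non-acclimated replicates 1 to 3 and 0.194%, 0.143% and 0.419% in the cold-acclimated ones. Tubulin mRNA thus made up a smaller share of the transcriptome in every cold-acclimated library, with the smallest loss in replicate 3. In bulk RNA, fewer cells of a kind and less RNA per cell cannot be told apart. Changes were tested with limma on log2(TPM + 1), and a gene was called when its p, adjusted by Benjamini-Hochberg over all tested genes, was under 0.05 and its log2 fold change reached 1 in either direction. Of the 10 members 3 were downregulated, Tubb5, Tubb4b and Tubg1, against 16.0% of all tested genes called downregulated. No member was upregulated, against 2.63% of all tested genes. The estimate was below 0 for 10 of 10 members, against 66.5% of all tested genes. In 8 of 10 the level was lower in all 3 replicates (47.9% of all tested genes), and in 5 of 10 the conditions did not overlap (31.4% of all tested genes were lower and 9.69% higher without overlap). An unadjusted p under 0.05 with a lower level was found for 5 of 10 (30.0% of all tested genes). The median log2 fold change was -1.09 for the members and -0.34 for all tested genes. Over the 9 members other than Tubb2b it was -0.99. Tubb2b passed the filter through 1 non-acclimated library, the condition where it was high, so nothing is read from its direction. Of the other 9 members, all had an estimate below 0, and 7 were lower in all 3 replicates.

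**Figure D2:**
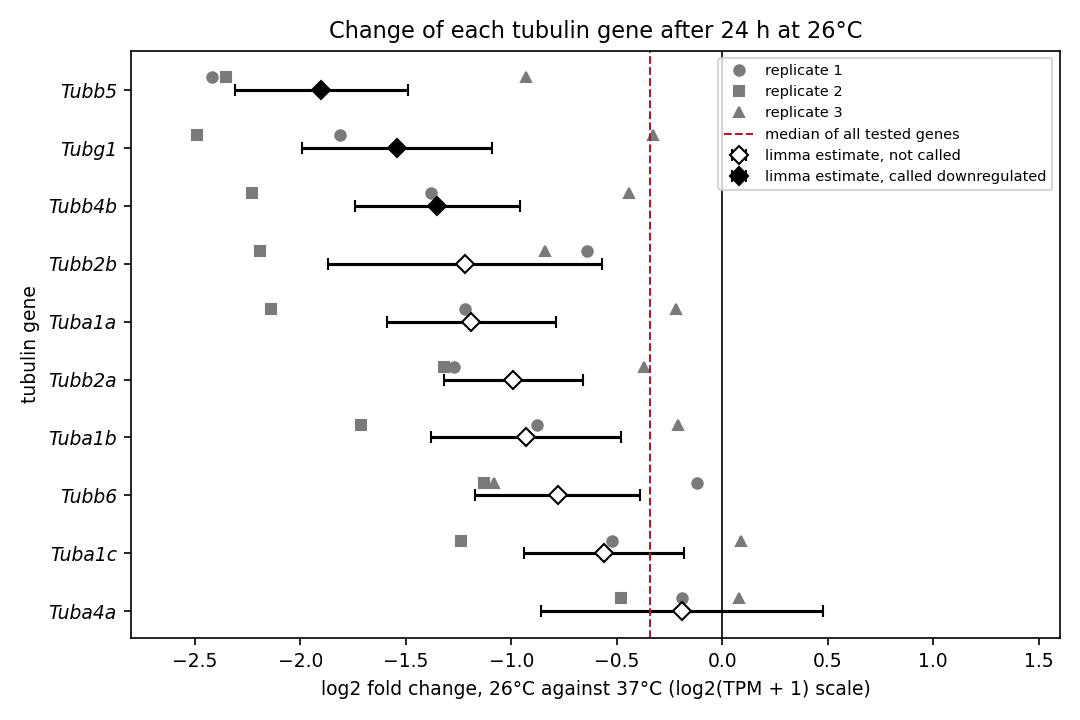
Log2 fold change of each tubulin gene, 26°C against 37°C, on the log2(TPM + 1) scale. Diamonds with bars are the limma estimate ± standard error, filled where the gene was called downregulated, grey markers are the change within each replicate number, and the dashed line is the median of all tested genes at -0.34. Tubb5 lies farthest from the line at -1.90, and replicate 3 shows the smallest change or the highest value in every gene but Tubb2b and Tubb6, with values above 0 in Tuba1c and Tuba4a.

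The replicate numbers paired the libraries, and the same model with the replicate number as a term called 5 of the 10 members downregulated, against 21.9% of all tested genes. One of the 5 was Tubb2b, which passed the filter through a library at 37°C, the condition where it was high, and nothing is read from its call. Without Tubb2b the count was 4 of 9. Scaling the libraries by the median of ratios, which moves the median of all tested genes to 0.02, left Tubb5 alone called (8.80% of all tested genes downregulated). It also moved the split over all tested genes, from 1954 downregulated and 321 upregulated to 1076 and 802. The study's methods name this kind of normalization, for counts in DESeq2, whereas it was applied to TPM here. With its own test and set of detected genes, the study reported more upregulated than downregulated genes. Both splits given here run the other way, and the reason was not tested. With replicates 1 and 2 only, an alternative chosen after seeing the data, 6 members were called (25.5% of all tested genes downregulated). These were Tubb5 (-2.39, limma adjusted p 0.0033), Tubg1 (-2.15, 0.0036), Tubb4b (-1.80, 0.0087), Tuba1a (-1.68, 0.0082), Tubb2a (-1.29, 0.0082) and Tuba1b (-1.29, 0.021), and the other 4 genes did not pass. Without the filter on low values 0 members were called (5.29% of all tested genes downregulated), and with voom on the recovered reads 1 was called (13.9%), as with the replicate term and median of ratios scaling together (12.7%). Leaving out cold-acclimated replicate 3 brought the calls to 6 (22.3%), and leaving out non-acclimated replicate 3 brought them to 1 (15.0%). None was called by limma without any of the other libraries, where fewer of all tested genes were downregulated too (4.29% and 2.73% without non-acclimated replicates 1 and 2, 3.82% and 4.90% without cold-acclimated replicates 1 and 2). The median change over the members was -1.05 in replicate 1, -1.93 in replicate 2 and -0.35 in replicate 3, against -0.32, -0.44 and -0.24 over all tested genes.

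Among the beta genes, Tubb5 is the ubiquitous isotype that dominates in dividing cells. It stood at 2100 TPM, 1660 TPM and 1805 TPM in non-acclimated replicates 1 to 3 and at 392 TPM, 324 TPM and 946 TPM in cold-acclimated replicates 1 to 3. Every cold-acclimated library lay below every non-acclimated one, although replicate 3 kept more than the other two. The log2 fold change was -1.90 ± 0.41 (standard error), a level 3.74-fold lower, with a limma adjusted p of 0.020 and a 95% interval from -2.85 to -0.96. The call held with median of ratios scaling (-1.50, adjusted p 0.035) and was lost when genes under the filter were tested too (adjusted p 0.058). Without 1 library at a time, the limma adjusted p lay between 0.0024, without cold-acclimated replicate 3, and 0.081, and it passed the threshold in 2 of the 6 cases, the other being without non-acclimated replicate 3.

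Tubb4b, a second widely expressed beta isotype that is also prominent in cilia, was measured at 800 TPM, 868 TPM and 764 TPM in non-acclimated replicates 1 to 3. At 26°C it stood at 307 TPM, 184 TPM and 564 TPM. The conditions did not overlap, and the fall was steepest in replicate 2. The log2 fold change was -1.35 ± 0.39 with a limma adjusted p of 0.048, just inside the threshold. The call was lost with median of ratios scaling (-0.95, adjusted p 0.099), with voom on the recovered reads (-1.22, adjusted p 0.052) and without each library in turn (adjusted p 0.081 to 0.14) other than cold-acclimated replicate 3 (adjusted p 0.0065).

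Tubb2a and Tubb2b are a neighbouring pair known best from neurons. Tubb2a stood at 47.9 TPM, 48.3 TPM and 52.9 TPM at 37°C and at 19.3 TPM, 18.8 TPM and 40.5 TPM at 26°C. These ranges did not overlap, but the log2 fold change of -0.99 ± 0.33 missed both thresholds (limma adjusted p 0.067, or 0.027 with the replicate term). Tubb2b was scarce, with 1.21 TPM, 10.1 TPM and 1.34 TPM at 37°C and 0.421 TPM, 1.45 TPM and 0.306 TPM at 26°C. These values rest on 16, 160 and 31 reads and on 7, 25 and 6 reads. Replicate 2 was the highest in both conditions, and the conditions overlapped. Its log2 fold change was -1.22 ± 0.65 (limma adjusted p 0.21), and its size depends on the scale, with -1.96 at a pseudocount of 0.1 and -1.97 with voom. On those scales it exceeded the change of Tubb5, at -1.90 and -1.78.

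Tubb6, a divergent beta isotype, stood at 150 TPM, 165 TPM and 106 TPM at 37°C and at 138 TPM, 74.9 TPM and 49.7 TPM at 26°C. Here replicate 3 was the lowest in both conditions, and the conditions overlapped. The change was -0.12, -1.13 and -1.08 in replicates 1 to 3, with a limma estimate of -0.78 ± 0.39 (adjusted p 0.19, interval -1.68 to 0.13).

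Among the alpha genes, Tuba1b, the ubiquitous and most abundant alpha isotype, stood at 1092 TPM, 1651 TPM and 1780 TPM at 37°C and at 594 TPM, 503 TPM and 1537 TPM at 26°C. Cold-acclimated replicate 3 lay within the range of the non-acclimated libraries. The log2 fold change was -0.93 ± 0.45 (limma adjusted p 0.17), with an interval from -1.97 to 0.11. The model with the replicate term gave an adjusted p of 0.046, still short of the fold threshold.

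Tuba1a, which is prominent in the developing nervous system, was at 179 TPM, 232 TPM and 186 TPM at 37°C and at 76.1 TPM, 51.7 TPM and 159 TPM at 26°C. The conditions did not overlap. The log2 fold change was -1.19 ± 0.40 with a limma adjusted p of 0.071, and the replicate term brought it past the threshold (adjusted p 0.039). Tuba1c was at 445 TPM, 475 TPM and 536 TPM at 37°C and at 310 TPM, 201 TPM and 572 TPM at 26°C. It overlapped between conditions and was slightly higher at 26°C in replicate 3, by 0.09 on the log2 scale. Its log2 fold change was -0.56 ± 0.38 (limma adjusted p 0.32).

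Tuba4a, known as the alpha isotype made without a terminal tyrosine, was at 83.6 TPM, 66.3 TPM and 227 TPM at 37°C and at 73.4 TPM, 47.4 TPM and 240 TPM at 26°C. Replicate 3 was about as far above the others in both conditions, and the temperatures overlapped throughout. The log2 fold change was -0.19 ± 0.67 (limma adjusted p 0.87), with an interval from -1.75 to 1.36. Its sign turned with median of ratios scaling (0.20), without non-acclimated replicate 3 (0.34) and without cold-acclimated replicate 2 (0.30).

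Tubg1, the gamma-tubulin of the nucleating ring complex, was at 106 TPM, 140 TPM and 106 TPM at 37°C and at 29.4 TPM, 24.0 TPM and 84.1 TPM at 26°C. The conditions did not overlap, and the change within replicates was -1.81, -2.49 and -0.33. The log2 fold change was -1.54 ± 0.45 (limma adjusted p 0.049), a level 2.92-fold lower. This call was lost with a pseudocount of 0.1 (adjusted p 0.052), with voom (0.051), with median of ratios scaling (-1.15, adjusted p 0.087) and without each library (adjusted p 0.081 to 0.16) other than cold-acclimated replicate 3 (adjusted p 0.0029).

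The alpha and beta classes were then summed, because the heterodimer takes 1 chain of each. The summed alpha level was 1799 TPM, 2424 TPM and 2729 TPM at 37°C and 1054 TPM, 803 TPM and 2509 TPM at 26°C. It overlapped between conditions, with a log2 difference of -0.83 (exact two-sided permutation p 0.30). The summed beta level was 3099 TPM, 2752 TPM and 2729 TPM at 37°C and 857 TPM, 603 TPM and 1600 TPM at 26°C. It did not overlap, with a log2 difference of -1.60 and an exact permutation p of 0.10, the smallest that 3 against 3 libraries allow.

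The beta-to-alpha ratio of summed TPM, a measure added after the data were seen, does not depend on how a library is scaled. It was 1.72, 1.13 and 1.00 in non-acclimated replicates 1 to 3 and 0.813, 0.751 and 0.638 in the cold-acclimated ones. Beta transcripts were as abundant as alpha transcripts or more so at 37°C and less abundant in each library at 26°C. The mean ratio was 1.29 ± 0.384 at 37°C and 0.734 ± 0.0888 at 26°C (SD, n = 3), a log2 difference of -0.78 with an exact permutation p of 0.10. Within replicates it changed by -1.08, -0.60 and -0.65 on the log2 scale, so that replicate 3 moved about as far as replicate 2. Without 1 library at a time the difference stayed between -0.94 and -0.54. A read of Tuba1a, Tuba1b or Tuba1c that is assigned to the wrong one of these 3 stays within the alpha sum. These genes also share windows with genes outside the sum, among them Gm49450, Gm17383 and Gm14150, and reads lost that way would lower the alpha sum and raise the ratio. The size of such a loss was not tested.

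**Figure D3:**
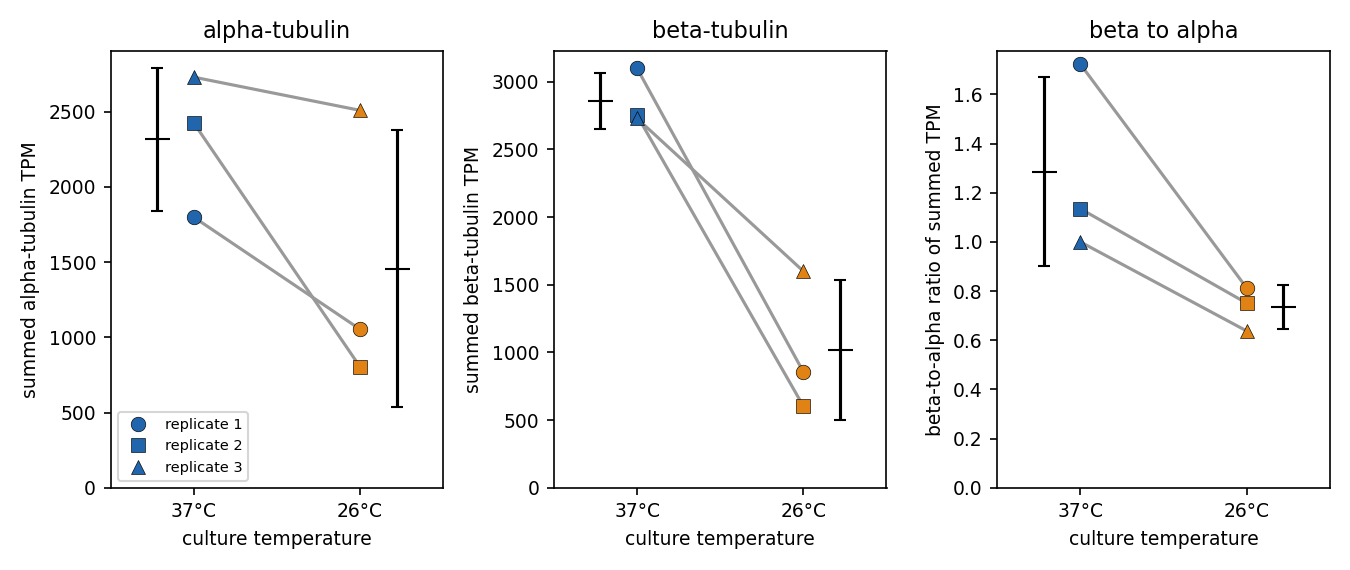
Summed TPM of the 4 alpha genes (left) and the 5 beta genes (middle), and the ratio of beta to alpha (right), by culture temperature. Points are libraries joined by replicate number, horizontal bars with error bars are mean ± SD of 3 libraries, and all axes start at 0. The beta sums and the ratios do not overlap between temperatures, while the alpha sum of replicate 3 fell from 2729 TPM to 2509 TPM and stayed in the range of the libraries at 37°C.

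Within the beta class, Tubb5 made up 67.8%, 60.3% and 66.1% of the summed TPM in non-acclimated replicates 1 to 3 and 45.7%, 53.7% and 59.1% in the cold-acclimated ones. Its share was lower at 26°C in each replicate and did not overlap. The mean difference was -11.9 percentage points, with an exact permutation p of 0.10 and 0.36 after adjustment over the 9 isotype shares. Tubb2a held 1.75% ± 0.195 at 37°C and 2.64% ± 0.438 at 26°C (SD, n = 3), and was the other isotype whose shares did not overlap. Tubb6 held 4.83%, 6.0% and 3.88% at 37°C and 16.1%, 12.4% and 3.10% at 26°C, a rise in replicates 1 and 2 and not in replicate 3. Tubb4b went from 28.5% ± 2.89 to 33.9% ± 2.91 and overlapped.

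Within the alpha class Tuba1b held 64.7% ± 3.72 at 37°C and 60.1% ± 3.27 at 26°C, and Tuba1c 21.3% ± 2.94 and 25.7% ± 3.36. Tuba1a held 8.77% ± 1.71 and 6.67% ± 0.477, and Tuba4a 5.23% ± 2.84 and 7.48% ± 1.89. All 4 overlapped between conditions, and the exact permutation p lay between 0.20 and 0.40. Tuba1b and Tuba1a were lower and Tuba1c and Tuba4a higher in each replicate pair.

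**Figure D4:**
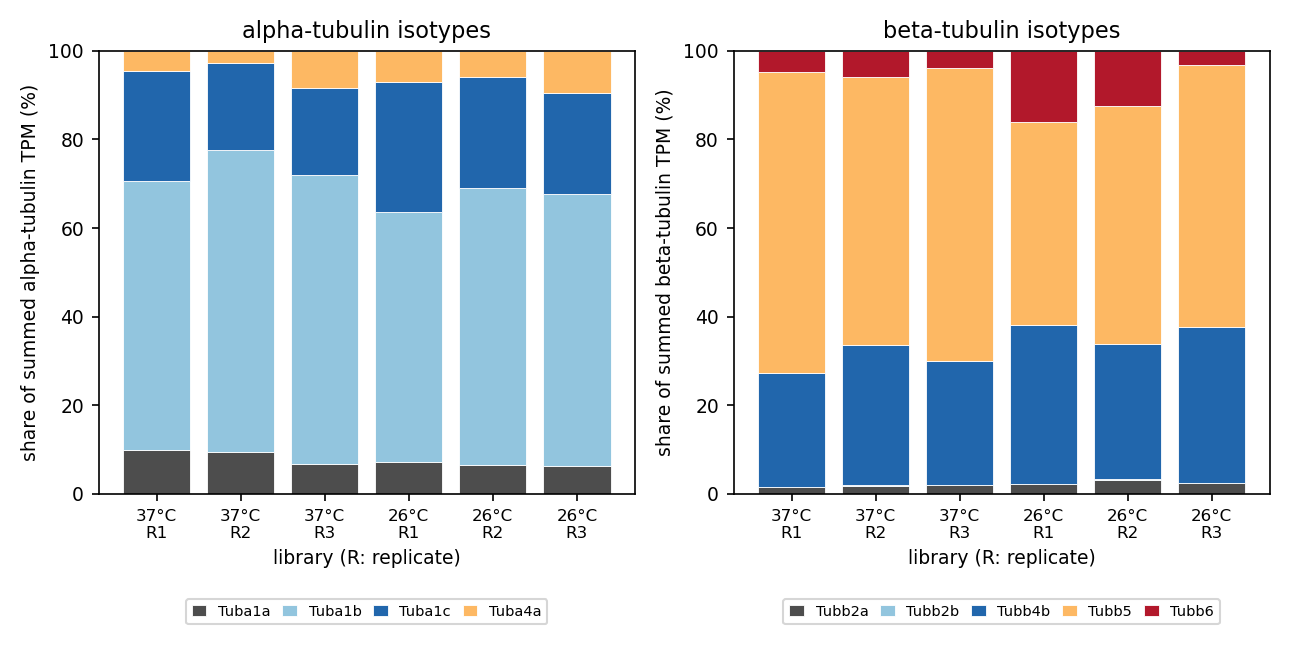
Share of each isotype in the summed TPM of the alpha class (left) and the beta class (right), in percent, as stacked bars for the 6 libraries. The Tubb5 segment shrinks from 60.3% to 67.8% at 37°C to 45.7% to 59.1% at 26°C, the Tubb6 segment is widest in cold-acclimated replicates 1 and 2, and Tuba1b and then Tuba1c are the widest alpha segments in all 6 libraries.

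Sequence features that the choice of members did not use were read next. The first 60 coding bases are shown for Tubb5, the leading beta gene, and for Tubg1, with the first 4 codons in capitals. In beta-tubulin mRNA these codons encode the residues read in autoregulation.
Tubb5: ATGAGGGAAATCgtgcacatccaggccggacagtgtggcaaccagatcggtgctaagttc
Tubg1: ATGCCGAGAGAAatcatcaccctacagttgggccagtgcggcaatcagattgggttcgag

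The upstream stretches of the beta genes called downregulated are given as the 250 bases before the gene's 5′ end in GRCm39, both on the minus strand, since they hold more than 1 copy of the motif CCAAT, the box bound by NF-Y. Capitals mark CCAAT on either strand and, in Tubb4b, TTTGAA, a form of the element bound at genes of late cell cycle phases.
Tubb5 (chr17:36149194-36149443): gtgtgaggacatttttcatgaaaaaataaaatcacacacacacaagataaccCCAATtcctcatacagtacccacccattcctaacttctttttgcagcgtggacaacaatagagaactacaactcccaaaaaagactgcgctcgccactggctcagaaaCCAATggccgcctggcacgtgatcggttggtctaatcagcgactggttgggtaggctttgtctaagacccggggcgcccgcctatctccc
Tubb4b (chr2:25114715-25114964): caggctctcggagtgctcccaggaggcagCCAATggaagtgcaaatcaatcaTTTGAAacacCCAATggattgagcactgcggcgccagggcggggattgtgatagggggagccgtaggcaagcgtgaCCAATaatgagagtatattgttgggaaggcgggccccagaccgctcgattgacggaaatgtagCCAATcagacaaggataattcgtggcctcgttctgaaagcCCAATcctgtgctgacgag

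CCAAT occurred in the Tubb4b stretch at 221, 188, 122, 59 and 19 bases before the 5′ end, and TTTGAA at 198. In Tubb5 it occurred at 198 and 90. Tuba1a, Tuba1c, Tubb2b and Tubb6 held 1 CCAAT each, and Tuba1b, Tuba4a, Tubb2a and Tubg1 none. Of 10436 such stretches of tested protein-coding genes, 36.3% held CCAAT, 12.8% held at least 2, 12.5% held TTTGAA and 10.4% held TTTAAA, which no member held. TTTGAA and TTTAAA were searched on both strands and do not overlap CCAAT. These matches are letters in a window and were not tested against expression, and Tubg1, called downregulated, held none of them.

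Of the 10 other tubulin genes on the list, the 4 genes Tubb4a, Tubd1, Tube1 and Tubg2 passed the filter, while Tuba3a, Tuba3b, Tuba8, Tubal3, Tubb1 and Tubb3 did not, with Tubal3 at 2.12 TPM in 1 library as the highest value. Tubd1 and Tube1, the delta- and epsilon-tubulins of centrioles, and Tubg2, the second gamma-tubulin, were downregulated (3 of 4 tested, against 16.0% of all tested genes). Tubd1 was at 6.42 TPM, 10.2 TPM and 4.25 TPM at 37°C and at 0.122 TPM, 0.117 TPM and 0.412 TPM at 26°C, with a log2 fold change of -2.65 ± 0.36 (limma adjusted p 0.0074), and it passed the filter through its libraries at 37°C. Nothing is read from its direction, and the 3 of 4 thus rests in part on a gene whose direction the filter favoured. Tube1 changed by -1.52 ± 0.38 (limma adjusted p 0.032) and Tubg2 by -1.26 ± 0.30 (limma adjusted p 0.026). Tubb4a, best known from myelinating glia and neurons, went from 23.6 ± 9.0 TPM to 27.8 ± 2.99 TPM, a log2 fold change of 0.29 ± 0.32 (limma adjusted p 0.55). With median of ratios scaling, Tubd1 was the only gene of the list still called. It kept its call without each of the 6 libraries in turn, and in 4 of these cases it was the only call. Since the filter favoured its direction, nothing is read from these calls.

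Of 21 genes for prefoldin, the chaperonin CCT and the cofactors that assemble the dimer, 2 were downregulated (9.52%, against 16.0% of all tested genes), with a median log2 fold change of -0.03. The conditions did not overlap for 5 genes that were lower and 4 that were higher at 26°C (31.4% and 9.69% of all tested genes). By limma and by voom on the recovered reads, 0 were upregulated, and the prefoldin subunit Pfdn2 (0.73 ± 0.22, limma adjusted p 0.055) was the 1 gene above 0 with an unadjusted p under 0.05. Median of ratios scaling called it upregulated (1.12, limma adjusted p 0.019), against 6.56% of all tested genes. The downregulated genes were Tbcel, a cofactor E-like protein that destabilizes tubulin (-1.69 ± 0.29, limma adjusted p 0.011), and Arl2, the GTPase that works with the cofactors (-1.40 ± 0.25, limma adjusted p 0.012). In the autoregulation pair, Scaper was downregulated (-1.50 ± 0.38, limma adjusted p 0.032), while Ttc5 stood at -0.54 ± 0.28 (limma adjusted p 0.20). Without 4 of the 6 libraries in turn, and with median of ratios scaling, the Scaper call was lost.

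Of 18 tested enzymes and partners that modify tubulin, 2 were downregulated (11.1%, against 16.0% of all tested genes), with a list median of -0.61. They were Atat1, which acetylates alpha-tubulin (-1.50 ± 0.29, limma adjusted p 0.016), and Agtpbp1, which shortens glutamate chains on tubulin tails (-1.48 ± 0.40, limma adjusted p 0.040). By limma and by voom 0 were upregulated, and Svbp, the partner of the detyrosinating vasohibins (0.67 ± 0.23, limma adjusted p 0.071), was the 1 gene above 0 with an unadjusted p under 0.05. With median of ratios scaling Svbp was called upregulated (1.06, limma adjusted p 0.021) and the Agtpbp1 call was lost (-1.18, limma adjusted p 0.074). Of 19 genes of the gamma-tubulin ring complex and its anchors, 4 were downregulated (21.1%) and 1 upregulated (5.26%), against 16.0% and 2.63% of all tested genes, with a median of -0.96. Nedd1, which brings the ring complex to the centrosome, changed by -1.99 ± 0.28 (limma adjusted p 0.0076). Haus2, a subunit of the augmin complex, rose by 1.22 ± 0.21 (limma adjusted p 0.012), from 19.3 ± 2.01 TPM to 46.3 ± 1.59 TPM. The other downregulated genes, named after their values were seen, were Tubgcp4, Haus1 and Haus8. Mzt1, also named after its values were seen, was higher without overlap but short of the fold threshold (0.91 ± 0.26, limma adjusted p 0.047). It was called upregulated with voom (1.04, adjusted p 0.028) and with median of ratios scaling (1.30, limma adjusted p 0.017). Median of ratios scaling called 2 of the 19 downregulated and 2 upregulated, against 8.80% and 6.56% of all tested genes. With the replicate term 5 modifying enzymes and 9 ring complex genes were called downregulated and 1 ring complex gene upregulated, where 21.9% of all tested genes were downregulated and 3.75% upregulated. Ttll5, 1 of these 5 modifying enzymes, was named after its values were seen. It averaged 2.88 TPM in non-acclimated and 0.813 TPM in cold-acclimated cells and passed the filter through its non-acclimated libraries. Nothing is read from its call.

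Of 20 tested proteins that bind microtubule ends or lattice, 6 were downregulated (30.0%, against 16.0% of all tested genes), with a median of -1.03. By limma and by voom 0 were upregulated, and Camsap2, which caps free minus ends (1.03 ± 0.34, limma adjusted p 0.065), was the 1 gene above 0 with an unadjusted p under 0.05. Camsap2 was called upregulated with the replicate term (limma adjusted p 0.043), with median of ratios scaling (1.40, 0.040), with both together (1.40, 0.027), without cold-acclimated replicate 3 (1.36, 0.0098) and with replicates 1 and 2 only (1.45, 0.0082). The 2 with the smallest p were Numa1, which anchors spindle poles (-2.34 ± 0.42, limma adjusted p 0.012), and Map4, the ubiquitous lattice-binding protein (-1.64 ± 0.37, limma adjusted p 0.023). Of 6 tested severing enzymes 2 were downregulated, Fignl1 (-2.98 ± 0.41, limma adjusted p 0.0075) and the katanin-like Katnal1 (-1.77 ± 0.32, limma adjusted p 0.013), or 33.3% against 16.0% of all tested genes, with a median of -0.67. Katnal1 averaged 5.88 TPM in non-acclimated and 0.999 TPM in cold-acclimated cells, and it passed the filter through its non-acclimated libraries. The 33.3% thus rests in part on a gene whose direction the filter favoured. With the replicate term 9 of the end and lattice binding proteins were called downregulated, against 21.9% of all tested genes, and Camsap2 upregulated.

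**Figure D5:**
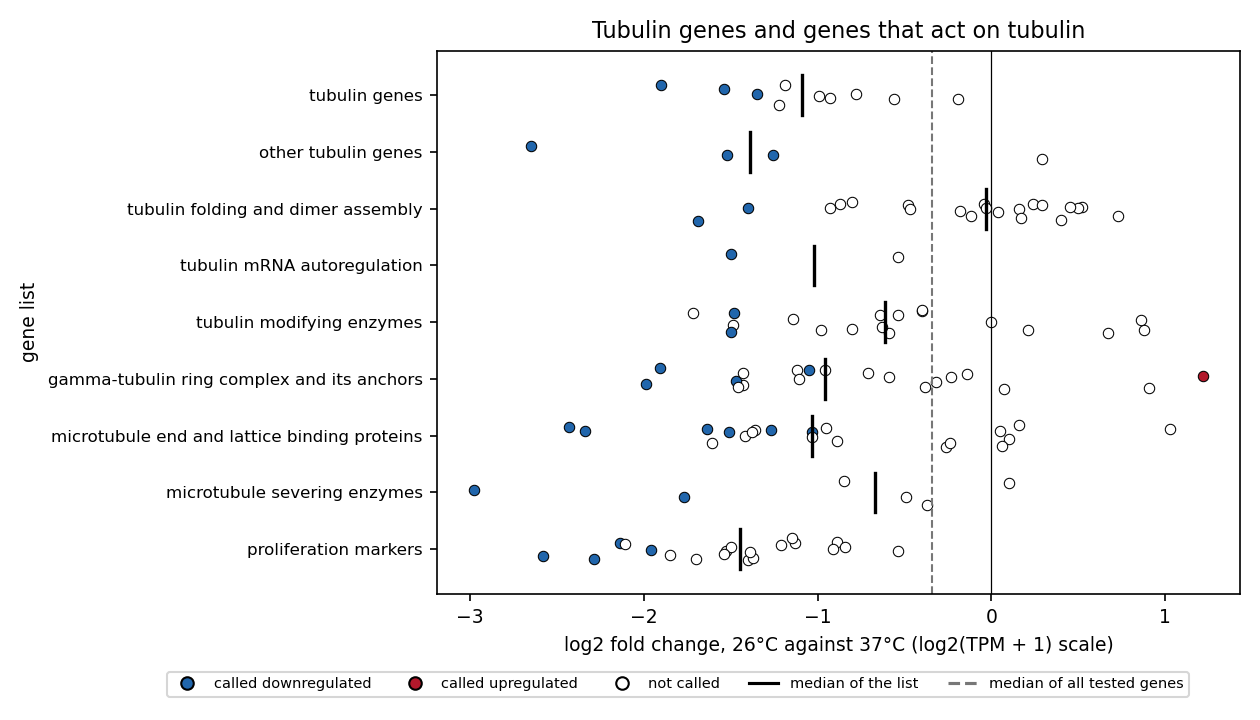
Log2 fold change, 26°C against 37°C on the log2(TPM + 1) scale, of every tested gene in the tubulin list and in lists of genes that act on tubulin. Each circle is a gene, blue if called downregulated, red if called upregulated and white if not called, with black bars at list medians and a dashed line at the median of all tested genes. The folding list is centred near 0, at -0.03, while the tubulin genes lie around -1.09 and the proliferation markers around -1.45.

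In replicates 1 and 2 proliferation markers fell with the tubulin genes, while in replicate 3 the median of the markers was near 0. The summed level of 20 such markers was 4225 TPM, 4687 TPM and 4674 TPM at 37°C and 1367 TPM, 810 TPM and 4405 TPM at 26°C, so it hardly fell in replicate 3. Their median change was -1.82, -2.60 and -0.01 in replicates 1 to 3, against -1.05, -1.93 and -0.35 for the tubulin genes. Of the 20, 4 were downregulated (20.0%, against 16.0% of all tested genes): Aurkb and Bub1 (limma adjusted p 0.027 and 0.030) and, named after their values were seen, Plk1 and Top2a. Their part in the change of the tubulin genes was not tested. In replicate 3 the markers changed by -0.91 to 0.65 on the log2 scale, with 10 of 20 below 0, and the 10 tubulin genes by -1.08 to 0.09.

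Across the 6 libraries, the genes whose log2(TPM + 1) was most like the log2 of the summed tubulin TPM were Gm27227, Lars1, Uggt1, Sass6 and Uhrf1, with Pearson r from 0.9979 to 0.9992. Lars1 is a leucyl-tRNA synthetase, Uggt1 a sensor of glycoprotein folding, Sass6 a centriole protein and Uhrf1 a keeper of DNA methylation. These values describe 6 points that share 2 conditions and 3 replicate numbers. The sum contains each member, so an abundant member is in part correlated with itself, and nothing is read from the members' own values. Of the members, 7 had an r with the sum between 0.928 and 0.988. Tuba4a (0.584), Tubb2b (0.349) and Tubb6 (0.243) had the lowest.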

How the data were processed

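Poly(A)-selected RNA of the 6 libraries, strand-specific per the study's methods, was sequenced as read pairs. The authors' processing, per the labels and the study's methods, lists FastQC 0.11.7, Trimmomatic 0.38, HISAT2 2.1.0 and featureCounts 1.6.3 on GRCm39; how counts became TPM, the gene lengths and the strand setting are not stated in these sources. The TPM values were used as deposited by the authors. Genes were grouped and compared by temperature as the sample labels give it. Whole reads were recovered from the TPM steps for 100% of the 21195 genes above 0, to within 5.8e-11 of a whole number.

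Differences were tested with limma 3.58.1 (mean-variance trend, R 4.3.3) on log2(TPM + 1) over the 12227 genes whose mean reached 1 TPM, with Benjamini-Hochberg adjustment over all of them; fold changes of low genes are understated on this scale. Sums, ratios and shares were compared by exact two-sided permutation tests. The alternatives were a pseudocount of 0.1, no filter, median of ratios scaling, a replicate term, voom on the recovered reads and leaving out each library. The limma step was tested on simulated data. Coding sequences, promoters and windows were read from GRCm39 with its GENCODE annotation; the sequences of the alpha genes are not reported here. Genes named by rule were all 10 tubulins, the other tubulins, the 2 genes with the smallest p of each further list, and the 5 genes most like the tubulin sum. Further list genes, among them Pfdn2, Svbp, Camsap2, Mzt1, Ttll5 and Agbl3, were named after their values were seen. Members and lists were chosen with earlier results of these data known. Deviations of libraries with the same replicate number from their group means correlated at 0.48, 0.50 and 0.51, and those with different numbers between -0.41 and 0.02, so the numbers were taken to pair the libraries; this pairing comes from the data and from the numbers in the labels. The p-values measure the spread between these replicates.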

Additional observations from a re-analysis of the deposited data

How the results depend on the processing

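The number of tubulin genes called downregulated was 3, and it became 0 without the filter on low values, 1 with median of ratios scaling, 1 with voom on the recovered reads, 5 with the replicate block, 6 with replicates 1 and 2 only and 1 with the replicate block and median of ratios scaling together. Without 1 library at a time it ranged from 0 to 6, with 6 once cold-acclimated replicate 3 was left out, 1 when non-acclimated replicate 3 was left out and 0 for the other 4 libraries, and the count called upregulated stayed at 0. The counts of the other lists take both directions together, where 18.6% of all tested genes were called in the main setting. Without the filter that share was 6.16%, and with median of ratios scaling 15.4%. It was 25.7% with the replicate block and 17.3% with voom. No filter on low values gave 1 call among the other tubulin genes, 0 in the autoregulation pair, 1 among modifying enzymes, 3 in the ring complex list, 1 among end and lattice binding proteins and 0 among proliferation markers. Median of ratios scaling gave 1 among the other tubulin genes (Tubd1, whose direction the filter favoured), 0 in the autoregulation pair and 2 among proliferation markers. The replicate block gave 5 modifying enzymes, 10 ring complex genes, 10 end and lattice binding proteins and 8 proliferation markers, and voom gave 4 modifying enzymes; the replicate block left the other lists within 1.5 times their counts.

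Without 1 library at a time, the calls ranged from 1 to 3 among the other tubulin genes, 0 to 4 for folding, 0 to 1 for autoregulation, 0 to 6 for modifying enzymes, 1 to 12 for the ring complex, 0 to 12 for end and lattice binding proteins, 1 to 3 for severing enzymes and 0 to 19 for proliferation markers, highest without cold-acclimated replicate 3. These counts also take both directions together. The share of all tested genes called ranged from 3.22% without non-acclimated replicate 2 to 26.0% without cold-acclimated replicate 3. The log2 difference ranged from -1.31 to -0.49 for the alpha sum, from -1.99 to -1.29 for the beta sum and from -0.94 to -0.54 for their ratio. The share difference in percentage points ranged from -15.0 to -8.34 for Tubb5, 2.85 to 9.33 for Tubb6, 4.12 to 7.10 for Tubb4b, 0.650 to 1.08 for Tubb2a, -6.54 to -2.70 for Tuba1b, 2.57 to 6.10 for Tuba1c, -3.07 to -1.52 for Tuba1a, 0.995 to 3.79 for Tuba4a and -0.118 to 0.0584 for Tubb2b, whose sign turned without non-acclimated replicate 2.

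Counted in recovered reads not divided by length, the share difference of Tuba4a was 5.30 points against 2.24. Tuba4a turned in sign with median of ratios scaling (0.20), with the replicate block and median of ratios scaling (0.20), without non-acclimated replicate 3 (0.34) and when cold-acclimated replicate 2 was left out (0.30), with a range from -0.86 to 0.34 over the left-out libraries. The log2 changes of the other 9 genes kept their direction in every alternative that gave a value, and the cause of the shifts was not tested. Tubb2b fell under the filter without non-acclimated replicate 2 and has no value there. At 3 libraries a condition, an exact test of a sum or share cannot reach 0.05. The depth limits Tubb2b, which has as few as 6 reads in a library.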
